A study of Mus musculus with 5 samples.

Results

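Integrins and laminins were followed through single-cell and single-nucleus RNA profiles of mouse kidney. Gene symbols of integrin alpha and beta subunits (Itga and Itgb) and of laminin alpha, beta and gamma chains (Lama, Lamb and Lamc) were taken from the gene names of both deposited count tables, without symbols that hold bp (integrin-binding proteins) or l1. Itgb2l, an integrin beta 2-like gene, is by this rule among the members. The tables held 38 such symbols, 18 alpha subunits, 9 beta subunits and 11 laminin chains, of 22980 genes in all. With a minimum of 20 counts over all barcodes, 37 were kept, 26 integrin subunits and 11 laminin chains. The symbol that was not kept, Itgax, a leukocyte integrin chain, had 8 counts, all of them in obstructed kidney.

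Laminins are cross-shaped trimers of 1 alpha, 1 beta and 1 gamma chain that assemble into the sheet on which basement membranes are built, and the alpha chain carries the main cell-binding domains. Integrins are receptors of 1 alpha and 1 beta subunit that span the cell membrane, bind laminin, collagen, fibronectin or other ligands outside the cell and connect them through talin and kindlin to actin inside it. Itgb1 is the shared partner of most alpha subunits, and Itgav pairs with several beta subunits, of which Itgb6 and Itgb8 are known for releasing TGF-beta from its latent complex. In the kidney, podocytes hold on to the glomerular basement membrane through the alpha 3 and beta 1 pair, and that membrane contains a laminin of the chains Lama5, Lamb2 and Lamc1.

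Each of the 5 groups was 1 library. The 4 healthy kidney libraries were a Drop-seq library of whole cells and 3 nucleus libraries, from the sNucDrop-seq, DroNc-seq and 10x Chromium methods. The last library held 10x nuclei of a kidney whose own ureter had been tied (unilateral ureteral obstruction, UUO) for 14 days, which injures the tubules and scars the organ. The labels name C57BL/6 mice for the cell preparation and give no age, sex or strain for the UUO kidney, no number of animals and no sham-operated kidney. With 1 library in each group no difference could be tested, and every interval given here covers counting error only.

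The libraries held 2947137 to 7411036 UMIs, and the member genes made up 658 CPM (UMI counts scaled to the same total in every class or library) in the cells, 2072 to 2934 CPM in the healthy nuclei and 3935 CPM in UUO nuclei. Cell labels are those of the authors' deposited annotation, and they were joined into 9 classes matched between healthy and UUO nuclei. The healthy ascending limb label, LH(AL), was matched with TAL, the thick ascending limb, in UUO. The healthy descending limb label, LH(DL), was matched with the UUO label DL and tAL, which also names the thin ascending limb. The proximal tubule class joined its segment labels and, in UUO, Dediff. PT and Prolif. PT. The UUO and healthy 10x libraries differed in sex-linked genes: Xist, the RNA of the inactive X chromosome, was at 1321 CPM in healthy 10x and 0.405 CPM in UUO, and Y-linked genes were at 3.73 and 618.5 CPM. Sex, obstruction and library preparation cannot be told apart between those 2 libraries, whereas the sNucDrop-seq library had Xist at 0 like UUO and is given beside them. Markers of another class were the highest list in several healthy classes, and their part in the member values there was not tested. In 10x these were ascending limb markers in the descending limb, podocytes and endothelium, and proximal tubule markers in macrophages and in the cells labelled MC, a name the files do not spell out. In sNucDrop-seq and DroNc-seq, proximal tubule markers led the descending limb, MC, macrophages and principal cells, and in sNucDrop-seq also podocytes. The names of these classes are those of the annotation. The healthy 10x macrophage label held 3 nuclei with 5 of 5 macrophage markers at 0 and was not used. The UUO and healthy 10x libraries shared 23 barcode sequences, the cell and sNucDrop-seq libraries 1, and no other pair shared any.

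The members were first placed along the healthy nephron, using the label with the highest CPM in each nucleus library. Among the collagen-binding alpha subunits, Itga1 was highest in the MC label. Proximal tubule markers were the highest list there, at 2926 and 2991 CPM in sNucDrop-seq and DroNc-seq, with fibroblast and pericyte markers at 1134 and 1226 CPM. It stood there at 942 CPM (95% counting interval 798 to 1105) in sNucDrop-seq and 1425 CPM (1284 to 1577) in DroNc-seq. The next label, LH(DL), the descending limb, was at 456 and 634 CPM. Itga1 shares its strand with Pelo, a gene that lies inside it, so its counts can include reads of that gene. Itga2, the other collagen receptor chain of epithelium and platelets, was scarce in healthy nuclei, with 24, 44 and 24 counts in the sNucDrop-seq, DroNc-seq and 10x libraries. Its clearest healthy signal was in podocytes, at 100.4 CPM in sNucDrop-seq and 51.3 CPM in DroNc-seq, but 8.92 CPM, from 1 count, in 10x. Proximal tubule markers were at 5068 CPM in the sNucDrop-seq podocyte label and podocyte markers at 3253 CPM. Itga11, the fibroblast collagen receptor chain, stayed at or under 28 CPM in every ranked healthy nucleus label.

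Of the laminin-binding alpha subunits, Itga3, the podocyte chain, was highest in podocytes of DroNc-seq at 200.04 CPM, with the next label at 55.5 CPM. In sNucDrop-seq it was at 108 CPM in podocytes and 111 CPM in the descending limb, which do not differ beyond counting error. In 10x principal cells came first at 175 CPM, with podocytes at 134 CPM. Itga6, which pairs with Itgb1 or Itgb4, was spread over the tubule. It reached 435 CPM in the connecting tubule and 421 CPM in the ascending limb of DroNc-seq, against 76.4 CPM in the MC label, and these 2 tubule labels are likewise not separated by counting error. Itga8, the nephronectin receptor chain of mesangial and interstitial cells, was at 986 CPM in the MC label of DroNc-seq and 130.2 CPM in that of sNucDrop-seq, where macrophages held 127.6 CPM. Itga9, which binds tenascin and osteopontin, was also highest there, at 527 and 279 CPM, with endothelium at 199.8 CPM in sNucDrop-seq.

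Itgav, the alpha V chain, was found in every healthy label that could be ranked. The label IC-B, an intercalated cell subtype, was the highest in all 3 nucleus libraries, at 299 CPM in sNucDrop-seq, 361 CPM in DroNc-seq and 545 CPM in 10x. Its lowest ranked labels were at 99.2, 148 and 156 CPM. Itgb1 had its highest healthy levels in the MC label, at 229 CPM in sNucDrop-seq and 348 CPM in DroNc-seq, and in podocytes of 10x, at 249.9 CPM. The leukocyte chains had too few counts to be placed, apart from Itga4, a chain of the VCAM1 receptor, with 318 CPM (214 to 453) in the macrophage label of DroNc-seq, and Itgal, the LFA-1 alpha chain, with 243 CPM (154 to 365) in the same 54 nuclei. The highest lists in that label were proximal tubule markers at 3493 CPM and connecting tubule markers at 1715 CPM, with macrophage markers at 1408 CPM, 4 of 5 above 0 and C1qa at 0. T cell markers in those nuclei were at 243 CPM, all from 1 of 4 markers, with Cd3e, Cd3g and Trac at 0.

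The beta subunits that activate latent TGF-beta had their healthy maxima in the proximal tubule or the loop of Henle. Itgb8 was highest in the S3 label of the proximal tubule in all 3 nucleus libraries, at 367 CPM in sNucDrop-seq, 624 CPM in DroNc-seq and 614 CPM in 10x, and the S1-S2 label came second each time at 285, 525 and 519.98 CPM. Itgb6 was highest in the ascending limb of sNucDrop-seq at 520.1 CPM, in the descending limb of DroNc-seq at 1083 CPM and in the S3 label of 10x at 638 CPM, with S3 second in the first 2 libraries at 424 and 939 CPM. Proximal tubule markers in other classes stood at 41.2%, 31.4% and 9.48% of their proximal tubule level in sNucDrop-seq, DroNc-seq and 10x. Whether this share came from RNA outside the nuclei or from nuclei under a wrong label was not tested. Itgb8 outside the proximal tubule stood at 50.1%, 35.6% and 13.8%, and Itgb6 at 76.1%, 70.3% and 42.5%. Both genes stood above the marker share in all 3 libraries, Itgb6 by more than Itgb8. Itgb5, which pairs with Itgav, was highest in podocytes of all 3 libraries, at 162 CPM in sNucDrop-seq, 272 CPM in DroNc-seq and 482 CPM in 10x. Itgb4, the hemidesmosome chain, was at 155 CPM in the label IC-A of 10x and had under 50 counts in either other nucleus library.

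The laminin chains had their highest labels in different parts of the healthy kidney. Lama2, the chain of muscle and interstitial basement membranes, was at 831 CPM (696 to 984) in the MC label of sNucDrop-seq and 967 CPM (851 to 1093) in that of DroNc-seq, against 77.8 and 55.6 CPM in the next label. Lama4, the endothelial chain, was at 233 CPM in endothelium of DroNc-seq against 64.9 CPM in the MC label. In sNucDrop-seq it was at 83.8 CPM in endothelium and 95.7 CPM, from 6 counts, in macrophages. Lama3, a chain of epithelial laminin, was highest in the S1-S2 label of the proximal tubule at 176, 210.1 and 91.9 CPM in sNucDrop-seq, DroNc-seq and 10x. Lama1, the chain of early basement membranes, was highest in the descending limb, at 100.1 CPM in sNucDrop-seq and 120.4 CPM in DroNc-seq, with S1-S2 second at 85.8 and 114 CPM. In that descending limb class proximal tubule markers were at 4080 and 3745 CPM and descending limb markers at 300.2 and 27.8 CPM.

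Lama5, the alpha chain of mature kidney basement membranes, was highest in podocytes of sNucDrop-seq at 216 CPM, in principal cells of DroNc-seq at 183 CPM and in IC-A of 10x at 179 CPM, so its highest label changed with the library. Lamb1, the common beta chain, was highest in the loop of Henle each time, at 278 CPM in sNucDrop-seq, 338 CPM in DroNc-seq and 270.0 CPM in 10x. Lamc3 was found in the MC label at 124 CPM in sNucDrop-seq and 99.3 CPM in DroNc-seq. Lamb2, of the glomerular laminin, was at 46.2 CPM, from 9 counts, in podocytes of DroNc-seq and 42.0 CPM in the MC label. Lamb3 had 9 to 24 counts in each healthy nucleus library and was not placed.

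**Figure D1:**
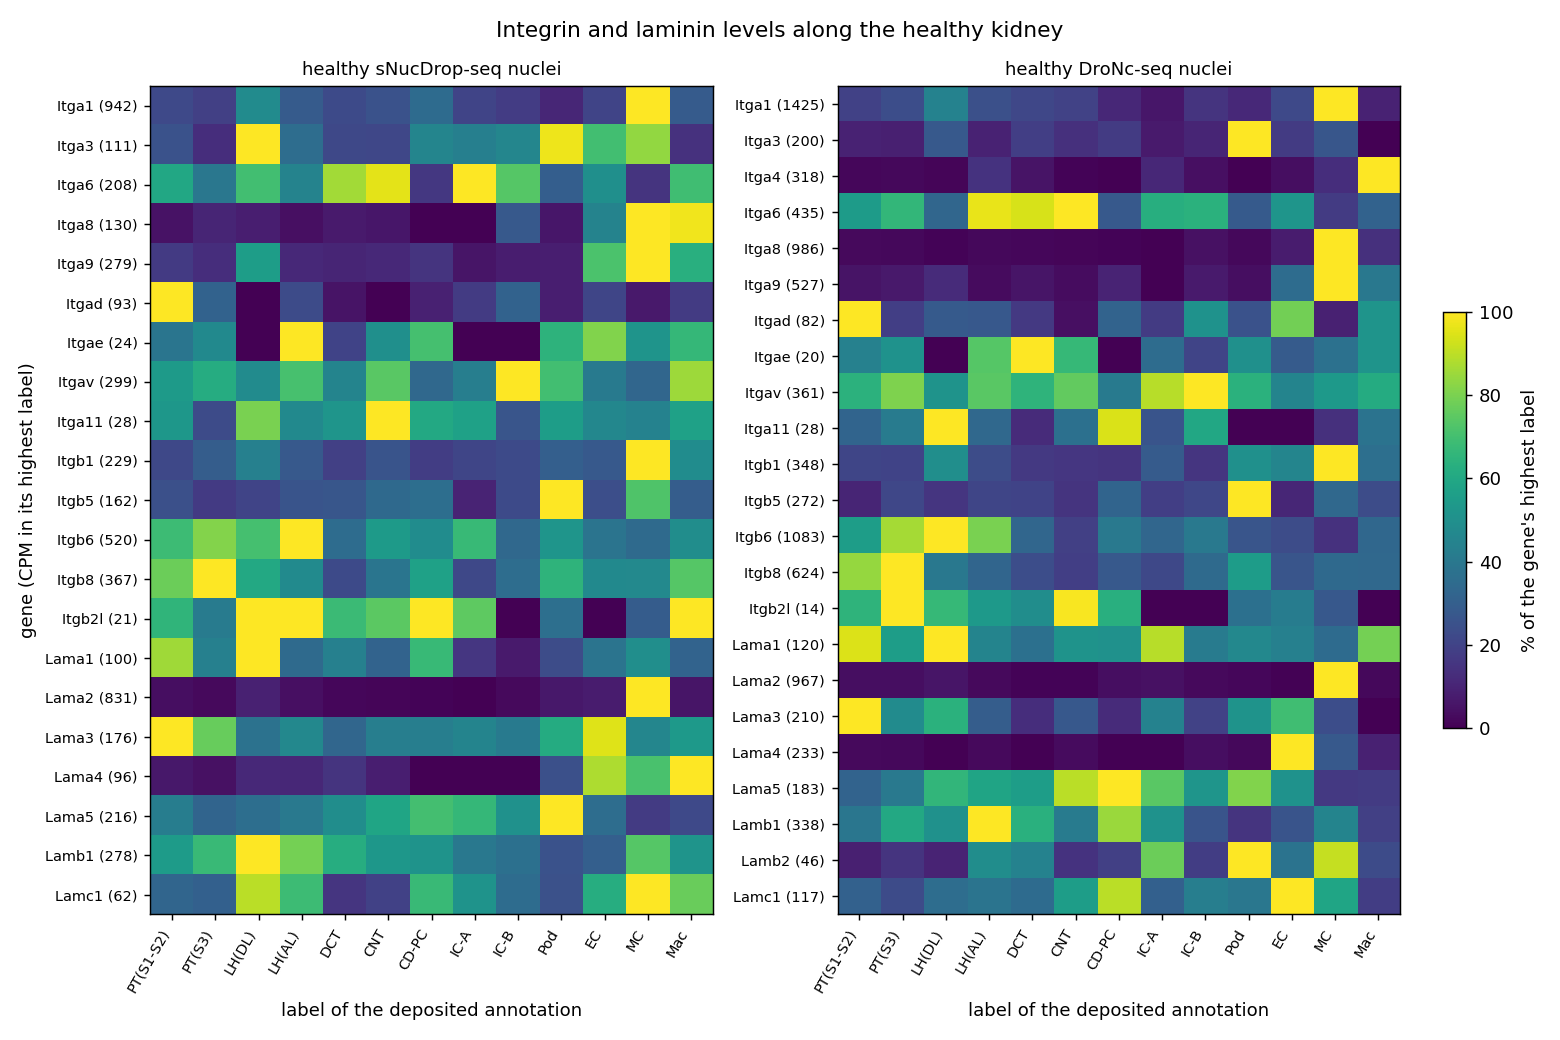
Level of each member with at least 50 counts, by label of the deposited annotation (columns, labels with at least 20 nuclei), in 2 healthy nucleus libraries. Colour is the percent of the gene's level in its highest label with at least 5 counts, whose CPM is in brackets, and is stopped at 100. The MC column is bright for Itga1, Itga8, Itga9 and Lama2 in both panels, and the podocyte column for Itgb5.

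The main comparison asked which members differ between the obstructed and the healthy kidney, on the 10x platform. A member counted as measured if it was in both libraries' lists with 20 counts or more over the pair of sums, and it was called where the CPM were at least 2-fold apart. Over all nuclei, which mixes changes of cell make-up with changes of level, 6 of 30 measured members were higher in UUO (background 10.2% of 12831 genes) and 2 were lower (background 20.5%). The higher ones were Itgav, Itgb1, Itga2, Itga11, Lama2 and Lama4. The lower ones were Itga2b, the platelet chain, with 28 counts in healthy 10x and 31 in UUO, and Itgad, a leukocyte chain overlapped on the other strand by Cox6a2 and other genes. The median log2 ratio was 0.22 for the members and -0.16 for all genes measured. Set against the 3 healthy nucleus libraries, 4 of 31 members were at least 2-fold above the highest of them (background 5.75%): Itga2, Itgav, Itgb1 and Lama4. Itgad and Lamc3 were at least 2-fold below the lowest (background 13.1%). Lama2 is not among them: it was at 52.1 CPM in UUO, 12.9 CPM in healthy 10x, 55.3 CPM in sNucDrop-seq and 72.3 CPM in DroNc-seq.

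Itgav was the member with the most counts in UUO nuclei, 8897. In the proximal tubule it was at 175 CPM in sNucDrop-seq, 248 CPM in DroNc-seq, 322 CPM in healthy 10x and 1587 CPM in UUO. UUO therefore lay above all 3 healthy libraries, 4.92-fold over healthy 10x (log2 2.30, interval 2.15 to 2.45). UUO was also the highest of the 4 in each of the 9 matched classes. In the distal convoluted tubule the 4 values were 135, 235, 156 and 1137 CPM, a ratio to healthy 10x of 7.27-fold. In the ascending limb they were 212, 269, 214 and 1126 CPM, a ratio of 5.27-fold. The smallest ratio, 2.02-fold, was in intercalated cells, with 245, 347, 427 and 865 CPM. The others were 4.03-fold in the descending limb, 3.29-fold in principal cells, 2.73-fold in podocytes, 2.65-fold in the connecting tubule and 2.22-fold in endothelium. Itgav was in every one of these classes at least 2-fold above the highest healthy nucleus library.

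Itgb1 showed the same pattern. In the proximal tubule it was at 59.4 CPM in sNucDrop-seq, 71.8 CPM in DroNc-seq, 76.6 CPM in healthy 10x and 438 CPM in UUO, 5.72-fold over healthy 10x (log2 2.52, 2.21 to 2.84). In the connecting tubule the values were 59.7, 54.8, 51.9 and 432 CPM, a ratio of 8.31-fold. In podocytes they were 69.5, 174, 249.9 and 529.6 CPM, and the ratio was the smallest, 2.12-fold (log2 1.08, 0.39 to 1.80). Between these lay the ascending limb at 6.52-fold, principal cells at 4.42-fold, the distal convoluted tubule at 3.89-fold, the descending limb at 3.76-fold, and endothelium and intercalated cells at 2.31-fold each. In healthy 10x the classes spanned 51.9 to 249.9 CPM, while in UUO 8 of the 9 classes lay between 432 and 609 CPM and intercalated cells stood at 252 CPM.

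Of 1838 genes measured in all 9 classes, 34 (1.85%) were at least 2-fold higher in UUO in each of them, and Itgav and Itgb1 were 2 of these. The other members measured in all 9 classes were Itga3, Itga6, Itgb5, Itgb6, Itgb8 and Lama5, and none of these was higher by 2-fold in each. The 34 genes also held Uty, a Y-linked gene, Actb, the ribosomal protein genes Rps18, Rps23 and Rplp2, and Spp1, which encodes osteopontin, a ligand of alpha V integrins. In UUO, Itgav outside the proximal tubule stood at 52.2% of its level there and Itgb1 at 101.8%. Proximal tubule markers stood at 9.72%. The part of RNA carried between classes in the values of these 34 genes was not tested. Scaling decided the call in the classes with the smallest ratios: with median-of-ratios scaling Itgav was under 2-fold in endothelium and in intercalated cells (log2 0.92 in each), and so was Itgb1 in endothelium (log2 0.98). Alternatives were tried in these classes and over all nuclei. Itgav was at least 2-fold higher in 104 of 110 values and never under 1.67-fold. Itgb1 was so in 106 of 109 and never under 1.64-fold. The count minimums leave a ratio unchanged, so their values could only repeat the main call. These shares therefore overstate how many alternatives could have changed a call. Values under 2-fold came from scaling, from leaving out barcodes above 3 class medians or from the mean of CPM over barcodes.

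Itga2 was the member with the largest ratios. In principal cells it had no count in any of the 3 healthy nucleus libraries and 226 counts in 116 of 322 UUO nuclei, 510.1 CPM (446 to 581). Against the floor of 3 counts in the healthy 10x class it was at least 19.4-fold higher. In the connecting tubule it had 0 counts in sNucDrop-seq and DroNc-seq, 1 count in healthy 10x (5.19 CPM) and 250 in UUO (423 CPM), a log2 ratio of 6.35 with a counting interval of 3.86 to 11.66. In the distal convoluted tubule it was at 3.73 CPM, from 1 count, in healthy 10x and 289 CPM in UUO, log2 6.28 (3.78 to 11.59). The ascending limb had 3.08 CPM, from 2 counts, and 168 CPM, log2 5.77 (3.89 to 8.83).

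In the proximal tubule the UUO level and the ratio of Itga2 were smaller than in these distal segments. It was at 1.74 CPM in sNucDrop-seq, 3.32 CPM in DroNc-seq, 13.5 CPM in healthy 10x and 51.7 CPM in UUO, 3.84-fold over healthy 10x. It was at least 6.18-fold higher in the descending limb and at least 7.07-fold higher in intercalated cells, both with 0 healthy 10x counts, and log2 2.29 (-0.33 to 7.66) in endothelium, from 1 healthy count. Itga2 was thus called higher in 8 of 8 classes measured. Outside the proximal tubule, healthy 10x held at most a few counts of it in each class. Those classes could reach the count minimum only through UUO counts, and a lower call was not possible there. The 8 of 8 therefore does not show how widely Itga2 was higher, and the levels in each class are the result. Podocytes were not measured, with 1 count in healthy 10x and 14 in UUO (143 CPM), and there the sNucDrop-seq value of 100.4 CPM lay inside the UUO counting interval of 78 to 239. The 3 markers of platelets, which carry the Itga2 protein, were at 0 in the UUO connecting tubule and principal cells. A part of platelets in the Itga2 counts was not tested.

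**Figure D2:**
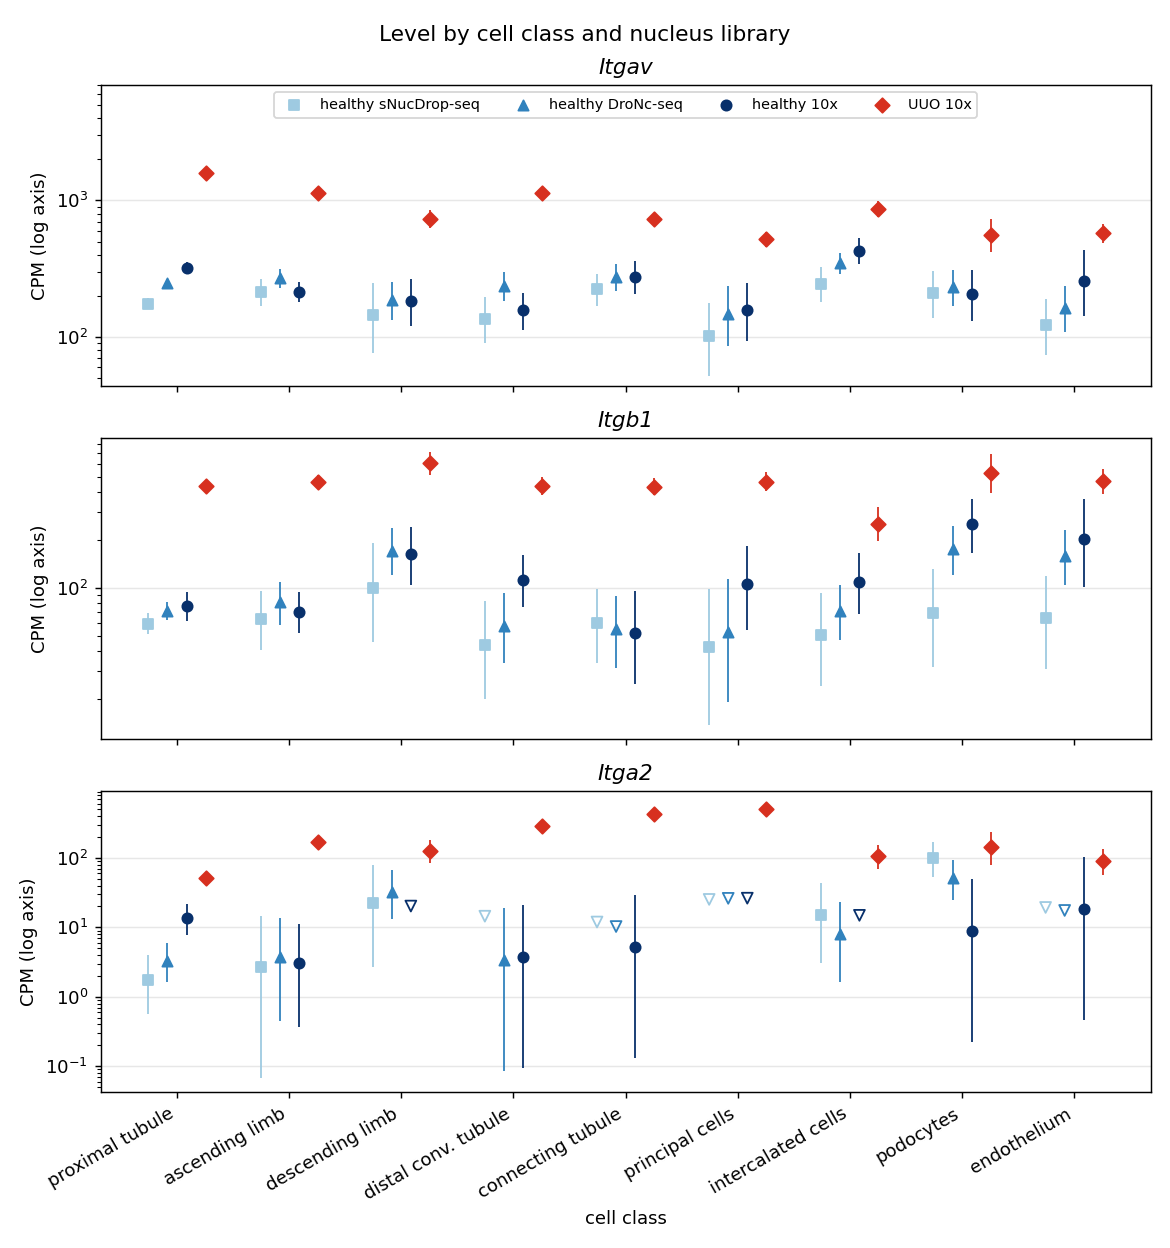
CPM of Itgav, Itgb1 and Itga2 (log axis) by cell class in the 3 healthy nucleus libraries and in UUO nuclei. Bars are 95% counting intervals, and open triangles mark 0 counts, drawn at the level that 3 counts would give. The UUO diamonds of Itgav and Itgb1 lie above the healthy symbols in all 9 classes, and those of Itga2 lie between 51.7 CPM in the proximal tubule and 510.1 CPM in principal cells.

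Because these 3 genes were higher together, the 250 bases before the start of each are shown, from RefSeq on build GRCm38.p6, 5′ to 3′ on the gene's strand, with motif matches in capitals. On GRCm38, in the GENCODE annotation, Itgav lies at chr2:83724397-83806916 on the forward strand, Itgb1 at chr8:128685654-128733200 on the forward strand and Itga2 at chr13:114833081-114932100 on the reverse strand. The stretches shown are chr2:83724147-83724396, chr8:128685404-128685653 and chr13:114932101-114932350.
Itgav: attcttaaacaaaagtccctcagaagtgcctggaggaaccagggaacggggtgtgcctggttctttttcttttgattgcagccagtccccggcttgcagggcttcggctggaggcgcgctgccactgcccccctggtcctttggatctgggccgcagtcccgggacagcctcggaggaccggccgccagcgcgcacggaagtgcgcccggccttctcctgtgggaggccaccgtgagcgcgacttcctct
Itgb1: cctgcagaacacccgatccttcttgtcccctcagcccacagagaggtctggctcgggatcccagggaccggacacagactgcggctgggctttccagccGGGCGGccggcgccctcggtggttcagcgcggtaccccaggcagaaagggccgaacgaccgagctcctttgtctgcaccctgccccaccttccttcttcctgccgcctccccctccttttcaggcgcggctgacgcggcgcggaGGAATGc
Itga2: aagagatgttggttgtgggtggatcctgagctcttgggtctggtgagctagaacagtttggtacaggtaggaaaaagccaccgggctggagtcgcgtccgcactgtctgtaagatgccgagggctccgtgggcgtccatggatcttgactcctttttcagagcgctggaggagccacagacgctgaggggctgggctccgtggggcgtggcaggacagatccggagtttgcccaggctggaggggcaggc
Both strands were searched for 4 motifs. The AP-1 motif was spelled TGANTCA, with any base at its middle. The GC box, bound by Sp factors, was spelled GGGCGG. The TATA box, a core promoter element, was spelled TATAAA. The motif of TEAD factors, which are partners of YAP, was spelled GGAATG. Itgb1 held 1 GC box and 1 TEAD match, which do not overlap, and Itgav and Itga2 held none of the 4. Of 32851 promoter windows of the same length, 6.75% held the AP-1 letters, 32.7% the GC box, 12.4% the TATA box and 12.6% the TEAD letters. The table had promoters for 24 of the 38 member symbols, and 1, 8, 0 and 2 of these held the 4 motifs in their first listed promoter. The other listed promoter of Lamb3 held 1 TEAD match. No match says only that those letters are not in that window.

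In the proximal tubule, the main site of reabsorption, 7 of 28 measured members were higher in UUO (background 14.6% of 11395 genes) and 2 were lower (background 20.7%). Besides Itgav, Itgb1 and Itga2 the higher members included Itga3, Lama4 and Lama5. Itga3 was at 20.5 CPM in sNucDrop-seq, 18.7 CPM in DroNc-seq, 26.1 CPM in healthy 10x and 90.5 CPM in UUO (log2 1.79, 1.26 to 2.37). Lama4 was at 5.21, 5.43, 5.05 and 23.7 CPM in the same order (log2 2.23, 1.05 to 3.71). Both lay above every healthy nucleus library. Set against the 3 libraries together, 6 members were at least 2-fold above the highest (background 7.45%), Itga2, Itga3, Itgav, Itgb1 and Lama4 among them, and 2 were below the lowest (background 15.6%). Lama5 was at 79.6, 62.2, 74.1 and 149.6 CPM, just past the 2-fold line (2.02-fold, log2 interval 0.69 to 1.36). The lower members were Itga2b and Itgad, at 11.8 and 10.9 CPM in healthy 10x and 2.75 and 1.93 CPM in UUO.

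Of the beta partners of Itgav, Itgb1 was higher with it in the proximal tubule, while Itgb5, Itgb6 and Itgb8 were measured and not called. Itgb6 was at 394 CPM in sNucDrop-seq, 690.1 CPM in DroNc-seq, 541 CPM in healthy 10x and 518 CPM in UUO (log2 -0.06, -0.19 to 0.07), inside the healthy range. Itgb8 was at 330.5, 551, 563 and 343 CPM (log2 -0.72, -0.85 to -0.58), and the UUO value again lay inside the healthy range. Itgb5 was at 33.0, 36.2, 73.3 and 83.4 CPM (log2 0.19, -0.16 to 0.55). Lamb1 was at 172, 152, 146 and 155 CPM, level across all 4 libraries. Itga6 was at 101, 252, 280.4 and 185 CPM and Itga1 at 192, 293, 221 and 429 CPM (1.95-fold). Proximal tubule markers in this class summed to 12148 CPM in healthy 10x and 847 CPM in UUO, and the part of that loss in the member values was not tested. Fibroblast and pericyte markers were at 4.21 CPM there in healthy 10x and 48 CPM in UUO.

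Within UUO the proximal tubule had segment labels and 2 further labels, Dediff. PT with 117 nuclei and Prolif. PT with 81, read as dedifferentiated and proliferating. These labels were clustered on the same nuclei and genes, so the values are a description. Itgav was highest of all 17 UUO labels in Dediff. PT, at 2766 CPM (2537 to 3009), with 1667 CPM in Prolif. PT and 1510.2 CPM over the segment labels. Itgb6 was also highest in Dediff. PT, at 735 CPM (620 to 866) against 508 CPM in the segments, and so were Itga1 at 658 against 423 CPM and Lama1 at 164 against 72.9 CPM. Of 26 members measured, 4 were at least 2-fold higher in Dediff. PT than in the segments (background 5.01% of 10177 genes), namely Itga2, Itga5, Lama1 and Lamb3, and Itga11 was lower (background 9.69%). Only Itga2 and Lama1 had intervals clear of 0.

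Proliferating nuclei were set against the segments in the same way. Of 26 members, 4 were at least 2-fold higher than in the segments (background 9.32% of 10249 genes) and 5 lower (background 10.7%). Itga2 was at 199 CPM against 37.8 CPM (log2 2.39, 1.85 to 2.90) and Itga3 at 240.1 against 80.0 CPM (log2 1.58, 1.13 to 2.02), while Itga5 and Itga7 had 5 and 3 counts in the proliferating label. Lama1, at 32.3 against 72.9 CPM, and Lama3, at 27.7 against 63.6 CPM, were among the lower. The other lower ones, Lama4, Itga11 and Itgb3, had 2, 1 and 1 counts in the proliferating label, and their intervals reach above 0. Lama1 was thus above the segment level in Dediff. PT and below it in Prolif. PT. Without these 2 labels, 1 member in place of 2 was called lower in the proximal tubule against healthy 10x.

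**Figure D3:**
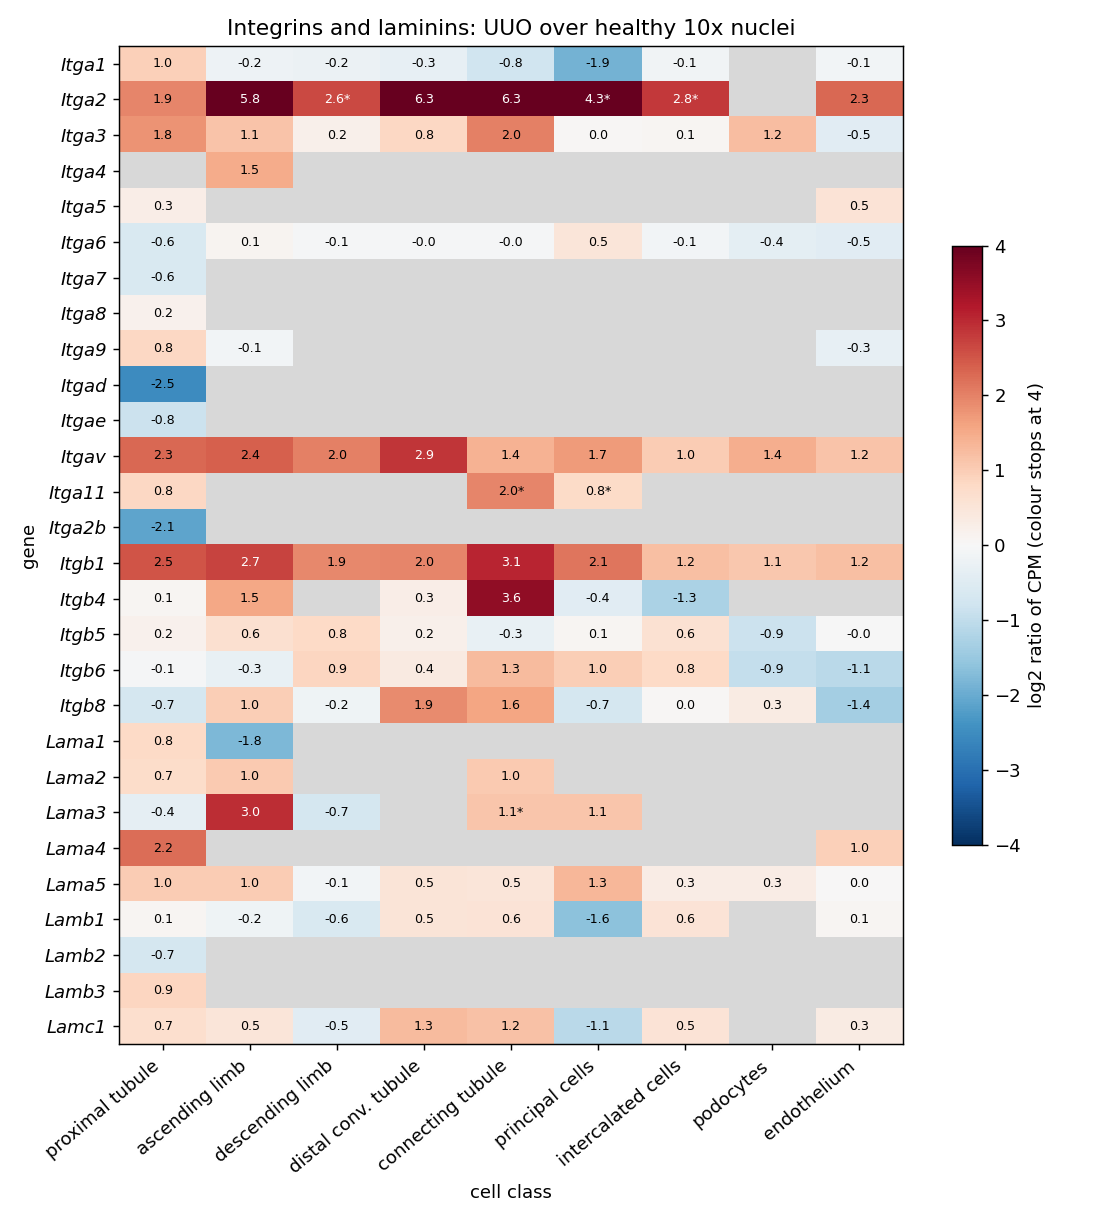
Log2 ratio of CPM, UUO over healthy 10x nuclei, for each member measured in at least 1 of 9 cell classes. Grey cells were not measured, and a star marks a lower bound against 0 healthy counts. The rows of Itgav, Itgb1 and Itga2 are positive throughout, from 1.02 to 6.35, while those of Itga6 and Itgb5 stay between -0.86 and 0.81.

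In the ascending limb, where urine is diluted, 9 of 19 measured members were higher in UUO (background 16% of 8292 genes) and 1 was lower (background 17.2%). Itga3 was at 91.8 CPM in UUO and 18.8 to 41.5 CPM in the 3 healthy libraries, and Itgb4 at 35.8 CPM against 5.31 to 12.3 CPM. Lama5 was at 132 CPM against 66.1 CPM in healthy 10x, on the 2-fold line, but 107 CPM in DroNc-seq. Lama3 had 23.8 CPM in UUO and 3.08 CPM, from 2 counts, in healthy 10x, whereas sNucDrop-seq and DroNc-seq held 82.3 and 62.0 CPM, so UUO was below both. Itga4 and Lama2 were called on 18 and 24 UUO counts, with intervals that reach 0, and UUO was inside the healthy range for each. Lama1 was the lower member, at 16.7 CPM in UUO against 34.5 CPM in sNucDrop-seq, 54.5 CPM in DroNc-seq and 58.5 CPM in healthy 10x (log2 -1.81, -2.81 to -0.89). Against all 3 healthy libraries 5 members were above the highest by 2-fold (background 7.59%), Itga2, Itga3, Itgav, Itgb1 and Itgb4, and 2 below the lowest (background 12.3%), Lama1 and Itgae.

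The descending limb had 3 of 13 members higher (background 12.5%) and 0 lower (background 13.5%), and the 3 were Itgav, Itgb1 and Itga2. The same 3 stood above all healthy nucleus libraries by 2-fold (background 4.29%), and Lama2 below them (background 9.75%). In the distal convoluted tubule 6 of 14 were higher (background 20.9%) and 0 lower (background 14.4%). There Lamc1, the common gamma chain, was at 9.65 CPM in sNucDrop-seq, 40.8 CPM in DroNc-seq, 37.3 CPM in healthy 10x and 88.9 CPM in UUO, above all 3. Itgb8 was called against healthy 10x, at 124 against 33.5 CPM, but DroNc-seq held 146 CPM of it, above UUO. Itga2, Itgav, Itgb1 and Lamc1 were above every healthy library by 2-fold (background 9.71%), and Lama1 was below the lowest by 2-fold (background 10.9%).

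The connecting tubule had the most calls, 11 of 17 higher (background 24.9% of 6055 genes) and 0 lower (background 13.2%). Itga3 was at 127 CPM in UUO against 23.9 to 31.1 CPM in healthy nuclei. Itgb4 was at 60.9 CPM against 11.9, 0 and 5.19 CPM, and Itga11 at 60.9 CPM against 27.8, 10.3 and 0 CPM. Lama2 was at 32.2 CPM against 11.9, 10.3 and 15.6 CPM, the last from 3 counts. With Itga2, Itgav and Itgb1 these make 7 members at least 2-fold above every healthy library (background 10.6%), and Itga9 was below the lowest (background 11%). Lamc1 was at 93.1 CPM against 65.1 CPM in DroNc-seq and 41.5 CPM in healthy 10x. Itgb6 and Itgb8 were called against healthy 10x at 199.7 against 83.1 CPM and 77.9 against 26.0 CPM, but sNucDrop-seq held 282 and 143 CPM of them and DroNc-seq 205 and 116 CPM, all above UUO. Lama3, with 0 counts in healthy 10x, was at least 2.17-fold higher, at 33.9 CPM, and lay below the 75.6 and 58.2 CPM of the other 2 libraries.

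Principal cells, the water channel cells of the collecting duct, had 5 of 16 members higher (background 21.4% of 4925 genes) and 4 lower (background 13.3%). Lama5 was at 151 CPM in sNucDrop-seq, 183 CPM in DroNc-seq, 149.0 CPM in healthy 10x and 370.1 CPM in UUO, above every healthy library and the highest Lama5 level of any UUO label. Itga1 was at 328, 157, 237 and 63.2 CPM and Lamb1 at 143, 288, 210.3 and 67.7 CPM, both below every healthy library. Against all 3 libraries 4 members were above the highest by 2-fold, with Lama5 the laminin among them (background 8%), and these 2 below the lowest (background 10.5%). Lamc1 was below healthy 10x, at 74.5 against 158 CPM, and above sNucDrop-seq, which held 42.1 CPM. Lama3 was called higher at 56.4 against 26.3 CPM, the latter from 3 counts, with 75.7 CPM in sNucDrop-seq. Principal cell markers summed to 5942 CPM in this class of healthy 10x and 300.2 CPM in UUO, where connecting tubule markers were at 535 CPM, and the part of this in the values was not tested.

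Intercalated cells, which move acid and base, had 3 of 13 members higher (background 16%) and 1 lower (background 12.4%). The lower one was Itgb4, at 109 CPM in healthy 10x and 45.1 CPM in UUO (log2 -1.28, -2.42 to -0.20), while sNucDrop-seq held 45.1 CPM and DroNc-seq 49.98 CPM, level with UUO. Only the 3 higher members stood above every healthy library by 2-fold (background 6.01%), and 0 stood below (background 10.8%). Podocytes had 3 of 8 higher (background 12.7%) and 0 lower (background 15.9%): Itga3, beside Itgav and Itgb1, was at 108 CPM in sNucDrop-seq, 200.04 CPM in DroNc-seq, 134 CPM in healthy 10x and 316 CPM in UUO. Itgb5 was at 162, 272, 482 and 265 CPM there, with UUO inside the healthy range. Ascending limb markers were the highest list in healthy 10x podocytes, at 3587 CPM, while podocyte markers led in UUO, at 3738 CPM. The part of other classes in these podocyte values was not tested. Itgav and Itgb1 were above every healthy library by 2-fold (background 4.96%), and Lama3 was below (background 11.8%). Lama3 had only 2 counts in UUO podocytes (20.4 CPM) and 7 in healthy 10x (62.5 CPM), too few to count as measured against healthy 10x. The log2 interval of that ratio, -4.92 to 0.78, includes 0.

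Endothelium had 3 of 15 members higher, Itgav, Itgb1 and Itga2 (background 21.6% of 3418 genes), and 2 lower, Itgb6 and Itgb8 (background 11.7%), shares close to those of all genes. Itgb8 was at 174 CPM in sNucDrop-seq, 163 CPM in DroNc-seq, 203 CPM in healthy 10x and 78.8 CPM in UUO, and Itgb6 at 199.8, 251, 277 and 129.9 CPM. The 3 higher members were above all healthy nucleus libraries by 2-fold (background 5.84%), and Itgb8 below them (background 9.68%). Ascending limb markers were the highest list in that class of healthy 10x, at 4766 CPM, with endothelium markers at 3307 CPM. In UUO endothelium markers led at 4241 CPM. Proximal tubule markers were at 1404 CPM in healthy 10x and 118 CPM in UUO. The part of these other classes in the Itgb6 and Itgb8 values was not tested. The vascular chains Lama4 and Itga5, which pairs with Itgb1 as the fibronectin receptor, were at 166 and 323 CPM and at 92.4 and 134 CPM in healthy 10x and UUO. The intervals of both ratios reached below 0, on 9 and 5 healthy counts from 46 nuclei. Median-of-ratios scaling left 1 of the 3 higher calls.

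The UUO library had stromal labels that the healthy annotation lacks. Fib.1, with 330 nuclei, was the highest UUO label for Lama2, at 865 CPM (759 to 981), against 170.3 CPM in JGA and 10.7 to 33.8 CPM in the tubule labels with at least 5 counts of it. Fib.2, with 68 nuclei, held 59.98 CPM. Fib.1 was also the highest UUO label for Lamb3, at 68.2 CPM from 19 counts, a gene that overlaps Hsd11b1 and G0s2 on the other strand. Lama2 in Fib.1 lay between the 831 and 967 CPM of the healthy MC label in sNucDrop-seq and DroNc-seq. Itga8 was at 93.3 CPM in Fib.1 and 95.5 CPM, from 6 counts, in UUO macrophages, against 130.2 and 986 CPM in the MC label. Itga9 was at 489.6 CPM (310 to 735) in JGA, 46 nuclei, and 258 CPM in Fib.1. The highest marker list of JGA was that of the connecting tubule, at 1319.9 CPM.

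The fibroblast classes summed to 938.5 CPM of fibroblast and pericyte markers, with 6 of 6 above 0. Those markers were at 36.1 to 163 CPM in the 9 matched classes of UUO and 0 to 92.4 CPM in those of healthy 10x. In the UUO endothelium Lama4 was at 323 CPM, the highest UUO label, with Fib.1 at 108 CPM. Lamc1 was highest in the same endothelium at 185 CPM, with Prolif. PT second at 129 CPM.

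UUO macrophages, 130 nuclei with 5 of 5 macrophage markers above 0, were the highest UUO label for Itgb5, at 461.5 CPM (309 to 663). Itgam, the alpha chain of the complement receptor Mac-1, was at 318 CPM (194 to 492) there and Itgb2, its beta partner, at 127 CPM from 8 counts. Both are listed at 0 over the whole healthy 10x library, as are Itgal, Itgb2l, Itgb3 and Itgb7, so no fold was taken. In the healthy macrophage label of DroNc-seq, where proximal tubule markers were at 3493 CPM and macrophage markers at 1408 CPM, Itgam was at 169 CPM (97 to 275), and its interval overlaps that of UUO. Connecting tubule markers were at 668 CPM in these UUO macrophages.

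**Figure D4:**
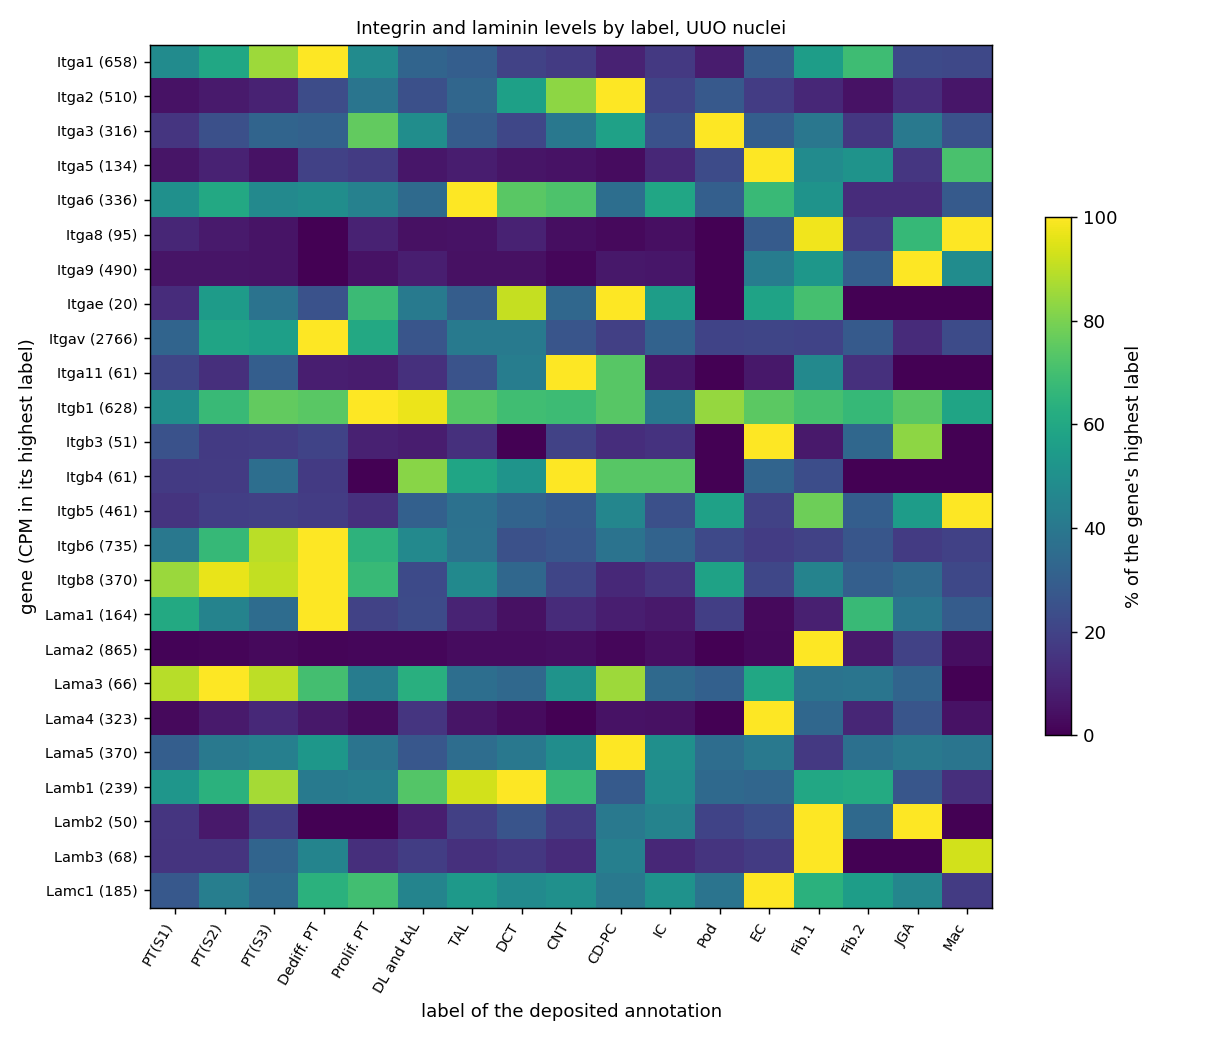
Level of each member with at least 50 counts by label of the UUO annotation, as percent of the gene's highest label with at least 5 counts, whose CPM is in brackets. Itgav, Itga1, Itgb6, Itgb8 and Lama1 peak in Dediff. PT, Itga2 and Lama5 in CD-PC, Lama2 in Fib.1 and Lama4 in EC.

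Genes that work with the members were counted from 7 lists. Of 9 measured matrix ligands of integrins, 7 were higher over all UUO nuclei (background 10.2%) and 1 lower (background 20.5%), with a median log2 ratio of 2.32 against -0.16 for all genes. Among the higher, Col1a2, Ctgf, Cyr61 and Fn1 had 13, 9, 9 and 10 healthy counts and passed the count minimum only through UUO counts. Spp1 was at 139 CPM in healthy 10x and 3210 CPM in UUO, Fn1, fibronectin, at 3.39 and 31.0 CPM, and Npnt, the ligand of the alpha 8 chain, at 138 and 54.1 CPM. Of 6 measured genes around latent TGF-beta 5 were higher and 0 lower (median 1.91), among them Ltbp2 at 3.05 and 37.1 CPM, Tgfb2 at 4.75 and 44.8 CPM and Ltbp1 at 22.4 and 80.0 CPM. Ltbp2, Tgfb1 and Tgfb2 had 9, 12 and 14 healthy counts and likewise passed the minimum only through UUO counts. In the proximal tubule 6 of these 6 were called higher (background 14.6%), 5 of them on 2 to 5 healthy counts. The intervals of Ltbp3 (log2 1.02, -0.36 to 2.74) and Ltbp4 (log2 1.61, -0.086 to 3.97) include 0. Over all nuclei, 2 of 5 leukocyte counter-receptors were higher (background 10.2%) and 0 lower (background 20.5%). Icam1, the ligand of the LFA-1 and Mac-1 integrins, was at 4.75 and 45.9 CPM. Icam1 and Jam2, the other gene called, had 14 and 17 healthy counts and also passed the minimum only through UUO counts. Vcam1, also on that list, was not measured against healthy 10x, and was at 671 CPM in the UUO proximal tubule segment labels.

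Basement membrane partners of laminin were called in both directions. Over all nuclei 5 of 16 were higher (background 10.2%) and 4 lower (background 20.5%), the latter a share close to that of all genes. Of the higher, Col15a1 and Frem1 had 14 and 11 healthy counts and passed the count minimum only through UUO counts. In the proximal tubule 1 of 14 was higher (background 14.6%) and 5 were lower (background 20.7%): Col18a1 was at 163 CPM in healthy 10x and 904 CPM in UUO, while Col4a3 was at 1494 and 324 CPM, Col4a4 at 396 and 126 CPM and Fras1 at 229.9 and 57.8 CPM. Col18a1 encodes collagen XVIII, Col4a3 and Col4a4 chains of collagen IV, and Fras1 a membrane protein that anchors epithelium. In endothelium Hspg2, perlecan, was at 73.9 and 409.5 CPM and Col4a1 at 129 and 335 CPM. These rest on 4 and 7 healthy counts, with log2 intervals of 1.07 to 4.37 and 0.27 to 2.73. Of 22 focal adhesion genes in the proximal tubule, 5 were higher (background 14.6%) and 4 lower (background 20.7%), the lower share being near that of all genes. The higher included Vcl, vinculin, at 79.2 and 368 CPM and Actn1 at 31.2 and 136 CPM, and the lower included both talins, Tln1 at 85.9 and 20.9 CPM and Tln2 at 327 and 41.5 CPM. Of 9 other laminin receptors 2 were higher and 1 lower there, and Dag1, dystroglycan, was at 131 and 190.4 CPM. Of 3 measured hemidesmosome genes Plec was the 1 called there, at 26.9 and 65.2 CPM.

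A last comparison asked how the fraction taken, whole cells or nuclei, sets these levels in healthy proximal tubule. Of 26 members measured in Drop-seq cells and sNucDrop-seq nuclei, 20 were lower in cells (background 48.7% of 12838 genes) and 1 was higher (background 17.9%). The median log2 ratio was -2.001 for the members and -0.93 for all genes, and scaling to the median gene moves every ratio up by 0.93. The higher member was Itga9, at 126 CPM in cells and 41.4 CPM in sNucDrop-seq nuclei, with 29.6 CPM in DroNc-seq and 14.3 CPM in 10x nuclei. Itgb1 was at 99.9 CPM in cells, above the 59.4, 71.8 and 76.6 CPM of the nuclei. Its partner Itgav was at 28.5 CPM in cells and 175, 248 and 322 CPM in nuclei, so cells lay below all 3 nucleus libraries. Lama3, at 10.5 CPM in cells and 154 CPM in sNucDrop-seq (log2 -3.87), and Lama1, at 5.77 and 62.6 CPM (log2 -3.44), were furthest apart. Itgb6 was at 81.8 against 394 CPM and Itgb8 at 70.2 against 330.5 CPM. Against DroNc-seq nuclei 2 of 28 members were higher in cells (background 19.7%), Itga5 and Itga9, and 22 lower (background 48.3%). Against 10x nuclei 2 of 24 were higher (background 21.6%), Itga9 and Itga11, and 16 lower (background 46.3%). Against sNucDrop-seq nuclei, all 15 measured basement membrane partners were lower in cells (background 48.7%), whereas 4 of 8 matrix ligands were higher (background 17.9%).

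**Figure D5:**
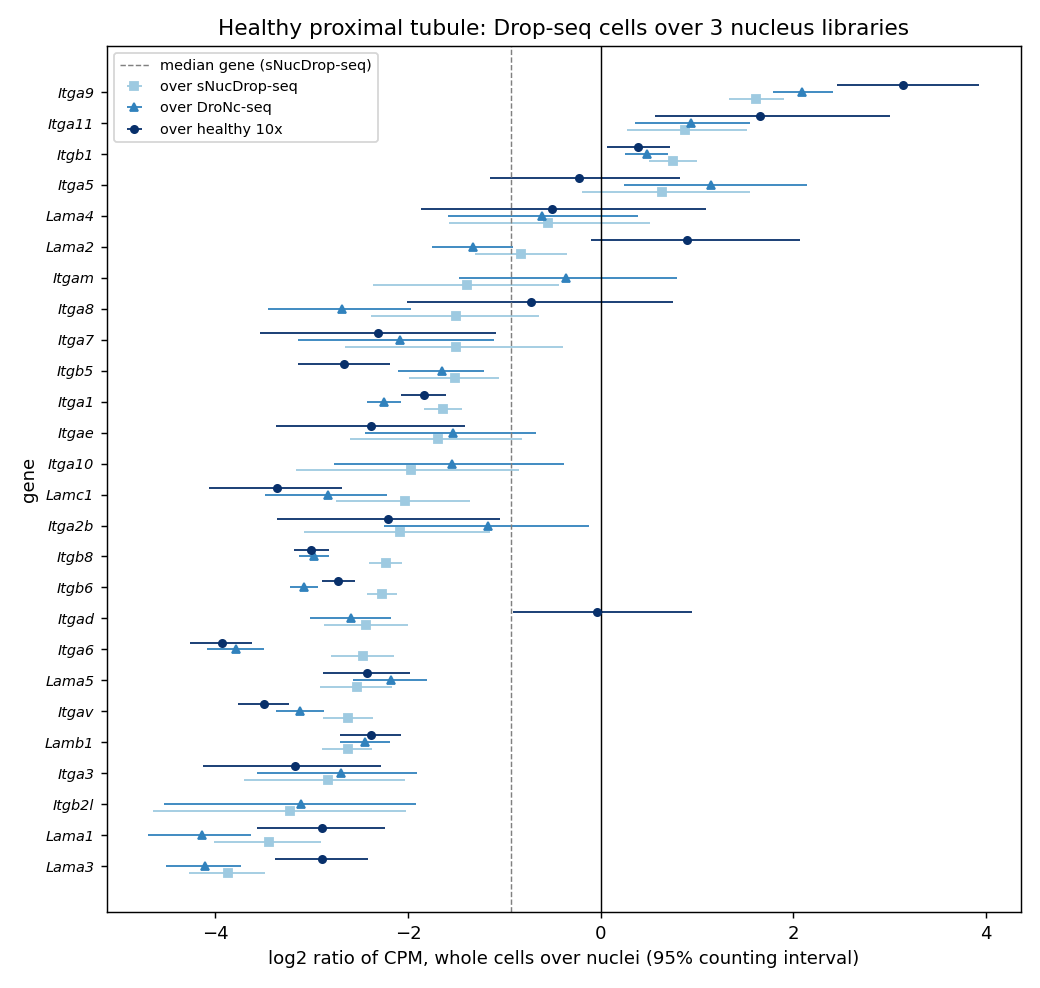
Log2 ratio of CPM in healthy proximal tubule, Drop-seq cells over each of 3 nucleus libraries, with 95% counting intervals. The dashed line is the median gene against sNucDrop-seq, -0.93. Itga9, Itga11 and Itgb1 lie to the right of 0 against all 3 libraries, and Lama1, Lama3, Itga3, Itga6, Itgav, Itgb6 and Itgb8 lie left of the dashed line against all 3.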

How the data were processed

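The authors deposited UMI counts per gene and barcode in 2 tables, 1 of the 4 healthy libraries and 1 of UUO nuclei, with a cell type for each barcode, and these counts were used as deposited. The mm10 build and STAR 2.5.3a come from the submitters' processing notes, and the deposited notes name zUMIs. For the gene annotation, and for whether introns and strand entered the counts, no source used here gives an answer. Libraries held 2769 (DroNc-seq), 3011 (sNucDrop-seq), 3531 (Drop-seq cells), 2084 (healthy 10x) and 6147 (UUO) barcodes.

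Counts were summed per class and library and divided by the class total to give CPM, with Python 3.11.15, pandas 2.3.3 and scipy 1.17.1. Levels have exact Poisson 95% intervals, and ratios have exact conditional 95% intervals. Neither covers differences between animals. With 1 library a group no test was run. Where a class sum was 0, 3 counts served as the floor. Ratios were taken over all genes listed in both libraries with at least 20 counts over both sums. On data simulated for the proximal tubule comparison (11395 genes), the interval was clear of 0 for 77.1% of 2-fold and 98.0% of 4-fold changes. For the endothelium comparison (3418 genes) the shares were 55.1% and 84.3%. Of unchanged genes, 2.64% passed the 2-fold line by counting error in the first and 11.2% in the second. Calls in small classes are therefore the least certain.

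Members with at least 50 counts over both sums and a 2-fold difference were named, as were the highest labels of members with at least 50 counts. From each partner list up to 4 genes with the largest mean CPM and those at least 4-fold apart were open to naming, and other genes named were chosen after their values were seen. The members and lists were chosen with earlier results of these data known. Alternatives were TMM (edgeR 4.0.16) and median-of-ratios scaling, other totals, barcode filters, count minimums and other healthy references. No doublet caller was run, and barcodes above 3 class medians of UMIs were left out as an alternative. The results of 1 member are not reported here, though the counts of members include it.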

Additional observations from a re-analysis of the deposited data

Results flagged for a closer look

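Several members were called in opposite directions in different classes of UUO over healthy 10x nuclei, and the difference between the classes was not tested. Itgb4 had a log2 ratio of 1.54 in the ascending limb and 3.55 in the connecting tubule, the latter from 1 healthy count, but -1.28 in intercalated cells. Itgb6 was at 1.27 in the connecting tubule and -1.09 in endothelium. Itgb8 was at 1.89 in the distal convoluted tubule, 1.58 in the connecting tubule and -1.37 in endothelium. Lamc1, the common laminin gamma chain, was at 1.25 in the distal convoluted tubule, 1.16 in the connecting tubule and -1.08 in principal cells.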

How the results depend on the processing

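No paired analysis was possible because each group was 1 library. Counts of members called higher or lower in UUO that moved by more than 1.5 times are given by setting, and the cause was not tested. TMM scaling gave 10 higher over all nuclei and 1 lower in podocytes, and 4 higher in cells over nuclei. Median-of-ratios scaling gave 10 higher over all nuclei, 1 lower in the connecting tubule and 1 in podocytes, 1 higher in endothelium and 4 higher in cells. Totals without mitochondrial and ribosomal genes and Malat1 gave 3 higher in cells. Without barcodes above 3 class medians there were 1 lower in the proximal tubule, 1 higher in intercalated cells, 1 lower in podocytes and 2 higher in cells. The mean of CPM over barcodes gave 1 lower in the descending limb, 1 higher and 1 lower in podocytes and 5 higher in endothelium.

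With a minimum of 1 count there were 2 lower in the ascending limb, 6 higher and 5 lower in the descending limb, 11 and 2 in the distal convoluted tubule, 2 lower in the connecting tubule, 7 and 4 in intercalated cells, 3 lower in podocytes and 6 lower in endothelium. With a minimum of 100 counts, which tests fewer members, there were 0 lower over all nuclei and in the proximal tubule, 5 higher and 0 lower in the ascending limb, 3 higher in the distal convoluted tubule, 4 higher in the connecting tubule, 0 lower in principal cells, 1 higher and 0 lower in intercalated cells, 0 higher in podocytes, 0 lower in endothelium and 11 lower in cells.

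With sNucDrop-seq as the healthy reference there were 12 higher and 6 lower over all nuclei, 14 and 6 in the proximal tubule, 2 lower in the ascending limb, 3 lower in the descending limb, 1 lower in the distal convoluted tubule, 2 lower in the connecting tubule, 8 higher in principal cells, 5 and 2 in intercalated cells and 8 higher in endothelium. With DroNc-seq there were 12 and 8 over all nuclei, 13 and 7 in the proximal tubule, 5 lower in the ascending limb, 6 and 5 in the descending limb, 1 lower in the distal convoluted tubule, 2 lower in the connecting tubule, 6 and 3 in intercalated cells, 2 lower in podocytes and 6 higher in endothelium. Without the dedifferentiated and proliferating labels 1 was lower in the proximal tubule. Cells over DroNc-seq and over 10x nuclei gave 2 higher each.

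Among called members with at least 50 counts over both sums, the ratios that changed sign were those of Lama2 over all nuclei (log2 -0.086 with sNucDrop-seq, -0.47 with DroNc-seq), Itgb8 in the distal convoluted tubule (-0.24 with DroNc-seq), Itgb6 in the connecting tubule (-0.50 and -0.041), Itgb8 there (-0.88 and -0.58) and Lamc1 in principal cells (0.82 with sNucDrop-seq). Of members called on fewer counts, Itga4, Lama2 and Lama3 in the ascending limb, and Lama3 in the connecting tubule and principal cells, also lay below sNucDrop-seq, and Itgb4 in intercalated cells was level with it. Itgav and Itgb1 were above 0 under every alternative run, though the count minimums could only repeat the main ratio. Itga2 was at least 2-fold higher in all 67 of its alternative values. These leave out the descending limb, intercalated cells and endothelium, where it had under 50 counts. Outside the proximal tubule healthy 10x held at most a few counts of Itga2 in each class, and count minimums leave a ratio unchanged. The 67 values therefore do not show how firm the call is. Scaling moved all ratios by -0.23 to 0.16 for UUO. Depth limits the small classes most: healthy 10x endothelium had 46 nuclei and podocytes 53.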

Other observations

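Itgb3, the chain that pairs with Itgav on endothelium and with Itga2b on platelets, had 69 counts in UUO, 12 in DroNc-seq, 3 in sNucDrop-seq and 1 in Drop-seq cells, and is listed at 0 in healthy 10x nuclei. In UUO it was highest in endothelium, at 51.2 CPM (95% counting interval 27.3 to 87.5), where 13 of 326 nuclei held a count, with the S1 label of the proximal tubule second at 12.8 CPM. Itgb2, the common beta chain of leukocyte integrins, had 16 counts in UUO, 8 of them in macrophages.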
